A study of Mus musculus with 20 samples.

Results

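The nuclear-encoded subunits of oxidative phosphorylation were followed across the plasma cell differentiation of single mouse lymph node B cells. They were taken by gene symbol, as every name that begins with Nduf followed by a subunit letter and number, Sdha to Sdhd, Uqcr, Cox4 to Cox8 or Atp5. The rule found 82 of the 16047 genes of the deposited count matrix, with 38 in complex I, 4 in complex II, 8 in complex III, 15 in complex IV and 17 in complex V. Their 4117416 counts were 3.73% of the 110379058 counts of the 1367 cells. All 82 had counts, and Cox6b2 and Ndufa4l2 were under 100 counts over all cells, at 51 and 50. The symbols place some genes by name only. Ndufa4 stands here with complex I, although it is regarded as a complex IV subunit, Cox7a2l acts on the joining of complexes III and IV, and Atp5s and Atp5sl are no subunits of ATP synthase proper. Cytochrome c1 and cytochrome c, which the rule leaves out, are given with the related lists below.

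B cells and plasma cells carrying eYFP had been index-sorted one by one. They came from lymph node of C57BL/6 animals at day 15 after immunisation with NP-KLH and Sigma adjuvant, and tamoxifen had been given by gavage 4 days before. The labels do not name the eYFP allele, the Cre driver or the number of mice. All groups share the strain, the immunisation, the tamoxifen and the eYFP sort. Sort gates gave 393 cells in the plasma cell gate, 282 in the pre-plasma gate, 325 in the dark zone gate and 367 in the light zone gate. The authors' supervised annotation gave 29 cells as activated pre-plasma, 63 as memory-like pre-plasma, 480 as plasma, 48 as light-to-dark zone, 452 dark zone, 278 light zone and 17 pre-memory cells. The cells lay on 20 plates, 10 of the sampleID C57BL/6M and 10 of C57BL/6F, assigned by the letter M or F in the authors' column for sex, which ends the sampleID in the labels.

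Plates held 3208858 to 11908095 counts, apart from plate 6 of C57BL/6F with 10 cells and 5979 counts. Plate 6 did not hold 5 cells of both classes for any comparison within plates. The states differed in depth, with a median of 229914 counts per cell in activated, 16638 in memory-like, 70190 in plasma, 161602 in light-to-dark zone, 56254 in dark zone cells and 43120 in light zone cells. They differed in cell cycle too, since 24.4% of plasma cells were called S or G2/M, against 65.5% of dark zone and 54.0% of light zone cells. The same share was 96.6% in activated, 38.1% in memory-like and 89.6% in light-to-dark zone cells. The spike-in RNA was a median fraction of 0.0328 of the counts in plasma cells, 0.0393 in those of the dark zone and 0.0434 in those of the light zone. Markers of the labelled types separated plasma from dark zone cells. The 7 plasma markers summed to 20260 CPM (counts scaled to a common library total) in plasma cells and to 4976 in dark zone cells. The 6 germinal centre markers summed to 124 in plasma cells and to 3528 in dark zone cells. By these sums, not every state followed its name. The plasma markers summed to 26000 CPM in memory-like cells, of which Jchain was 18220, and to 5119 in activated cells. Single markers did set activated cells apart from those of the dark zone. Jchain was lower in activated cells, at 1819 against 2957 CPM, and the other plasma markers were higher. Among them Irf4 was at 186 against 1.31, Fkbp11 at 127 against 0.101 and Xbp1 at 879 against 225 CPM. The 4 light zone markers summed to 6265 CPM in pre-memory and to 4787 in light zone cells. The 5 T cell markers summed to at most 3.01 CPM in every state but the memory-like one, with 34.2 CPM there, all of it Cd8a. The 5 myeloid markers summed to 103 CPM in plasma cells, 29.2 in those of the dark zone and 40.8 in those of the light zone. Of these sums Cd68 was 95.1, 25.7 and 40.1 CPM. The 6 red cell and stroma markers moved with the classes, at 36.6 CPM in plasma cells, 85.6 in the dark zone and 128 in the light zone. Among them Hbb-bt, a haemoglobin gene, was at 0.110, 28.2 and 38.4 CPM in that order, and Pecam1, which B lineage cells can express too, made up most of the rest. Their part in the results was not tested. Pre-memory cells had 198 CPM of myeloid markers, of which Cd68 was 197, and 199 CPM of red cell and stroma markers. Each of the 94 well barcodes was reused on more than 1 plate, and no cells had identical counts.

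Oxidative phosphorylation makes ATP at the inner mitochondrial membrane. Complex I (NADH dehydrogenase) and complex II (succinate dehydrogenase) feed electrons to ubiquinone, complex III (cytochrome bc1) passes them to cytochrome c, and complex IV (cytochrome c oxidase) passes them to oxygen. The proton gradient this builds drives complex V, the ATP synthase. Complexes I, III, IV and V mix nuclear and mitochondrially encoded subunits, while complex II is nuclear throughout. In antibody-secreting cells mitochondrial respiration is known to meet part of the cost of immunoglobulin synthesis, and germinal centre B cells are known to rely on oxidative metabolism as well.

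Comparisons used counts summed per plate and class, scaled by TMM to CPM and tested with edgeR's quasi-likelihood test with the plate as a block. A gene was called at a Benjamini-Hochberg adjusted p under 0.05 over all genes tested. Fold changes are log2 with their SE. Values per plate or pool are CPM with the library total scaled by TMM, so they are relative levels. They are neither plain shares of the counts nor amounts per cell. The labels do not say which plates share an animal, and p-values measure the spread between plates.

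In annotated plasma cells, 26 of the 77 members tested were higher and 5 were lower than in the germinal centre B cells of the same 19 plates. Among all 7649 genes tested, 14.2% were called higher and 17% lower, 31.2% in all. The members' median fold change was 0.13 log2, and that of all genes tested was -0.31 log2. By complex, 16 of 37 members of complex I were higher and 1 was lower, 4 of 8 of complex III were higher and none lower, and 4 of 17 of complex V were higher with 1 lower. Complex IV was divided, with 2 higher and 3 lower of 11 tested, and none of the 4 members of complex II passed the test in either direction. Complex I members summed to 9219, 17210 and 25530 CPM (lowest, median and highest plate) in plasma cells and to 7744, 13720 and 18800 CPM in germinal centre B cells. The sum was higher in the plasma cells of 17 of 19 plates. Complex II sums were close in both classes, with a median of 2053 CPM in plasma and 1952 CPM in germinal centre B pools, and were higher in plasma cells on 12 of 19 plates. The sums of complexes III, IV and V were higher in plasma cells on 18, 12 and 17 of the 19 plates.

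**Figure D1:**
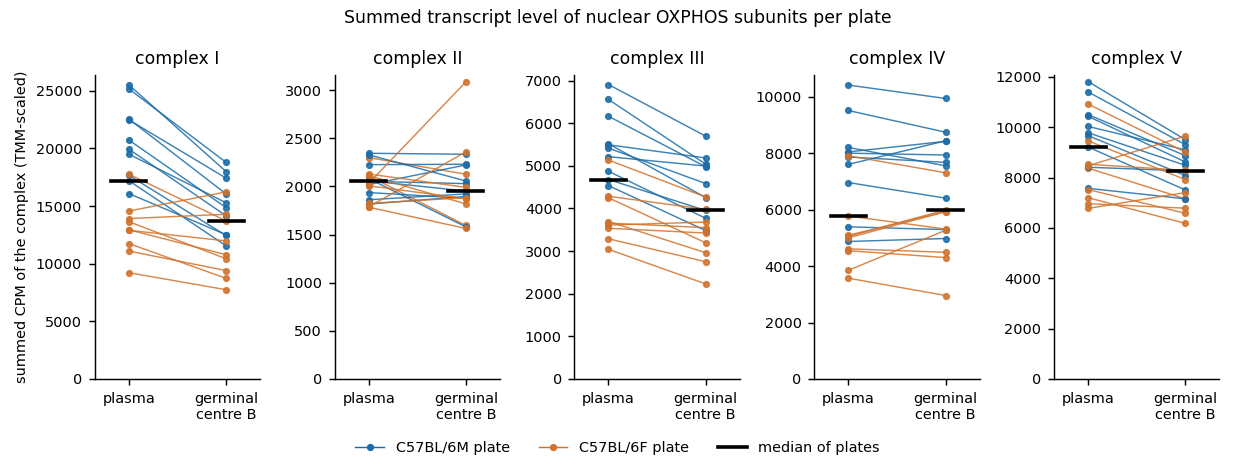
Summed CPM of the members of each complex (y axis, TMM-scaled) in the plasma and germinal centre B pools of 19 plates, with a line for each plate and a black bar at the median. Complex I had a median of 17210 CPM in plasma and 13720 CPM in germinal centre B pools, while the lines of complexes II and IV run in both directions.

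Of the 16 genes placed in complex I that rose, 14 were outside the electron-transferring core. They were accessory subunits, which surround the core, apart from Ndufa4. Ndufa1 (chrX:37187588-37191163, GRCm38), a small membrane subunit needed for assembly, had 91.6, 542 and 1783 CPM in plasma pools and 34.8, 174 and 814 CPM in germinal centre B pools (lowest, median and highest of 19). It was higher by 1.54 ± 0.09 log2 (adjusted p = 5.12e-13, edgeR). The ranges overlapped across plates, but plasma cells were higher on 19 of 19 plates. Ndufb11 (chrX:20615326-20617619), another X-linked membrane arm subunit, had 479, 950 and 1438 CPM in plasma and 278, 475 and 762 CPM in germinal centre B pools, 0.99 ± 0.09 log2 higher (adjusted p = 1.75e-09). Ndufb9 (chr15:58933756-58939488), a member of the LYR family of the membrane arm, had 642, 839 and 1212 CPM in plasma and 406, 517 and 813 CPM in germinal centre B pools, 0.73 ± 0.08 log2 higher (adjusted p = 1.26e-07). Both were higher in plasma cells on 19 of 19 plates. Ndufa3, Ndufs5 and Ndufv3 followed at 0.84 ± 0.12, 0.82 ± 0.15 and 0.75 ± 0.14 log2. Ndufa4 was 0.70 ± 0.06 log2 higher and was also higher on all 19 plates.

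The remaining 9 complex I members that rose were between 0.28 and 0.72 log2, namely Ndufs3, Ndufs6, Ndufv1, Ndufa2, Ndufb6, Ndufc1, Ndufa13, Ndufb8 and Ndufa11. Among the 7 nuclear core subunits, which carry the flavin, the iron-sulfur clusters and the quinone site, 2 rose: Ndufs3, of the quinone-binding module, at 0.72 ± 0.17 log2 and Ndufv1, which binds the flavin, at 0.57 ± 0.17 log2. Their median was 0.09 log2, against 0.295 log2 for the other 30, of which 14 rose. The core was set apart after its values were seen, and the difference between core and other subunits was not tested. Ndufa8, an intermembrane space subunit held by disulfide bonds, was the single complex I member that fell, with 300, 457 and 716 CPM in plasma and 448, 578 and 809 CPM in germinal centre B pools (-0.33 ± 0.10 log2, adjusted p = 0.0115). It was higher in the plasma cells of 3 of 19 plates.

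In complex III, Uqcrq (chr11:53427922-53430831), a small subunit next to cytochrome b, had 293, 871 and 1636 CPM in plasma and 199, 432 and 964 CPM in germinal centre B pools. It rose by 1.04 ± 0.08 log2 (adjusted p = 1.32e-10) and was higher on 19 of 19 plates. Uqcr11, Uqcrfs1, which encodes the Rieske iron-sulfur protein, and Uqcrb, of the quinone-binding region, rose by 0.60 ± 0.13, 0.53 ± 0.12 and 0.39 ± 0.14 log2. The core proteins Uqcrc1 and Uqcrc2 were at -0.08 ± 0.06 and -0.11 ± 0.13 log2 and did not pass the test.

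In complex IV the members moved apart. Cox7c (chr13:86044816-86046904), a small transmembrane subunit, had 86.8, 265 and 1006 CPM in plasma and 35.3, 160 and 515 CPM in germinal centre B pools (0.83 ± 0.12 log2, adjusted p = 6.38e-06). It was higher in the plasma cells of 18 of 19 plates. Cox6c, another small transmembrane subunit, fell by 0.44 on the log2 scale (SE 0.10, adjusted p = 0.000817) and was higher in the plasma cells of 3 of 19 plates. Cox6b1, at the intermembrane face of the cytochrome oxidase dimer, had close medians, 842 CPM in plasma and 836 CPM in germinal centre B pools, but within plates it was at -0.24 ± 0.06 log2 (adjusted p = 0.00527) and higher in the plasma cells of 1 of 19 plates. The widest difference was that of Cox7a2l, described with its relatives below.

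In the ATP synthase, Atp5g1 rose most, and Atp5j2, the f subunit of the membrane part, rose by 0.54 ± 0.08 log2. Atp5h and Atp5o, of the peripheral stalk, rose by 0.23 ± 0.08 and 0.19 ± 0.07 log2. Atp5a1, the alpha subunit of the catalytic head, had 75.2, 700 and 840 CPM in plasma and 515, 736 and 1153 CPM in germinal centre B pools (-0.39 ± 0.13 log2, adjusted p = 0.0288). It was higher in plasma cells on 3 of 19 plates. Atp5b and Atp5c1, the beta and gamma subunits of the same head, were at 0.00 ± 0.09 and -0.07 ± 0.07 log2. Atp5sl and Atp5s were at -1.77 ± 0.78 and -1.25 ± 0.82 log2 with adjusted p = 0.0877 and 0.265, at medians of 19.2 and 10.5 CPM in plasma and 45.3 and 21.6 CPM in germinal centre B pools. In complex II, Sdhc, a membrane anchor, was at 0.85 ± 0.40 log2 (adjusted p = 0.11), and Sdhb, the iron-sulfur subunit, at -0.13 ± 0.06 log2 (adjusted p = 0.112).

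**Figure D2:**
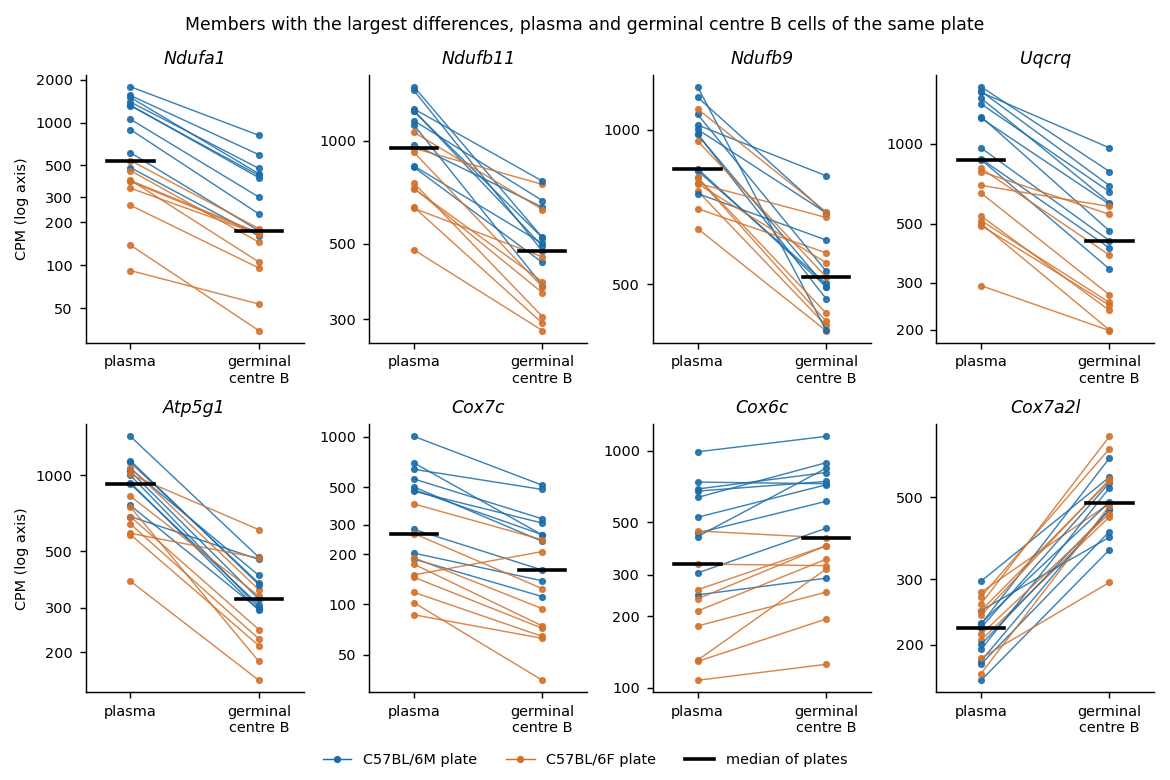
CPM (log axis) of 8 members in the plasma and germinal centre B pools of each of 19 plates, joined by a line per plate, with black bars at the medians. Ndufa1, Ndufb11, Ndufb9, Uqcrq and Atp5g1 were higher in plasma cells on 19 of 19 plates, and Cox7a2l was lower on all of them, while plates differ widely in level for Ndufa1 and Cox7c.

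Many of these genes have processed pseudogenes, and how reads that fit several places were counted is not given in the sources used here, so small differences of single members carry that uncertainty. The cell cycle moved with the classes. With G1 cells alone, 24 of 76 members were higher and 1 was lower in plasma cells, where 912 of 5055 genes were higher and 458 lower. The members' median was then 0.48 log2, and the median of all genes shifted by 0.57 log2, so the balance of all genes turned as well. By sampleID, C57BL/6M plates alone gave 25 members higher and 2 lower, where 850 of 7288 genes were higher and 758 lower. C57BL/6F plates alone gave 9 members higher and 1 lower, where 601 of 7387 genes were higher and 419 lower. A model with an interaction of class and sampleID, added after the data were seen, called 0 of 77 members and 0% of all genes by edgeR. At an unadjusted p under 0.05 were 3 of the 77 members and 189 of 7649 genes. In simulation the fit without the interaction recovered 11% of 2-fold changes in this comparison. A member not called for the interaction may therefore still differ between the sampleIDs.

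Several subunits exist in alternative versions encoded by separate genes. Subunit c, which forms the rotating ring of ATP synthase, comes from Atp5g1, Atp5g2 and Atp5g3, whose mature protein is the same and whose import sequences differ. The 150 bases before the RefSeq start of each gene (GRCm38.p6, minus strand, written 5′ to 3′) are shown to compare them, with capitals on CACGTG, the E-box bound by Myc and related factors, and on GCGCA, any base, then GCGC, the core of the site of nuclear respiratory factor NRF1, searched on both strands.
Atp5g1 (chr11:96075632-96075781): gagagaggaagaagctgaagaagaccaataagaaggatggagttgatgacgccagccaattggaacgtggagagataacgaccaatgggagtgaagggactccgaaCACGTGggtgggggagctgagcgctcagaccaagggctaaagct
Atp5g2 (chr15:102671048-102671197): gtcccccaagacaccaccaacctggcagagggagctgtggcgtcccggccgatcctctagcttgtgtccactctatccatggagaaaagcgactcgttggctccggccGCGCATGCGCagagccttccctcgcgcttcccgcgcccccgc
Atp5g3 (chr2:73911327-73911476): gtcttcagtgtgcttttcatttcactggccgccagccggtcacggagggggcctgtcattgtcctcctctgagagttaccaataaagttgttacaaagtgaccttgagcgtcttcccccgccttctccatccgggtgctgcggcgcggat
The match of Atp5g1 began 44 bases before the start and that of Atp5g2 42 bases before it. Atp5g3 had matches outside the stretch shown, an E-box 238 bases before the start and an NRF1 site from base 13 of the transcript. A match describes the letters in the window and does not show binding.

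Atp5g1 (chr11:96068852-96075670) had 382, 921 and 1419 CPM in plasma pools and 155, 325 and 609 CPM in germinal centre B pools. It rose by 1.40 ± 0.10 log2 (adjusted p = 3.46e-11) and was higher on 19 of 19 plates. Atp5g3 was at 0.25 ± 0.10 log2 (adjusted p = 0.0631) and Atp5g2 at -0.04 ± 0.15 log2 (adjusted p = 0.875). The make-up of the subunit c transcripts thus differed: Atp5g1 was 44.3%, 61.7% and 84.6% of the 3 genes' counts in plasma pools and 26.5%, 40.3% and 62.7% in germinal centre B pools (lowest, median and highest plate). The difference within a plate was 19.9 ± 6.71 percentage points (SD, 19 plates), above 0 on every plate. A two-sided permutation test that flips signs of plates gave p = 2.0e-05, the smallest that 100000 resamples can give, and 3.2e-05 after adjustment over 8 such tests.

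The Cox7a set also shifted. Cox7a2l (chr17:83501918-83517330), whose protein joins complexes III and IV and which C57BL/6 mice are reported to carry in a shortened form, had 160, 222 and 297 CPM in plasma pools and 294, 481 and 730 CPM in germinal centre B pools. It fell by 1.17 on the log2 scale (SE 0.09, adjusted p = 1.2e-10), was lower in the plasma cells of every plate, and its ranges met only at 297 and 294 CPM. Cox7a2, the version found in most tissues, rose by 0.40 ± 0.08 log2 (adjusted p = 0.000243). Cox7a2 was 54.2%, 74.3% and 84.5% of the set in plasma pools and 25.8%, 48.6% and 65.3% in germinal centre B pools, a difference of 24.6 ± 4.34 points within plates (permutation test, p = 2.0e-05, adjusted 3.2e-05, above 0 on 19 of 19 plates).

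The 5 members that were not tested, since too few pools reached the count filter, are versions known from few tissues. Cox4i2, the version known from lung and low oxygen, had 0, 7.88 and 47.8 CPM in plasma pools and 0, 0 and 6.80 CPM in germinal centre B pools, and was higher in plasma cells on 12 of 19 plates. Cox6a2, of heart and skeletal muscle, reached 28.6 CPM in plasma pools and was at 0 in every germinal centre B pool. Cox7a1, of muscle, reached 0.332 CPM in plasma and 20.6 CPM in germinal centre B pools. Cox6b2, of testis, was at 0 in every plasma pool and reached 16.3 CPM in germinal centre B pools, and Ndufa4l2, induced by hypoxia, reached 8.13 and 12.1 CPM. Their common counterparts held 98.6% or more of Cox4i1 with Cox4i2 and 98.9% or more of Cox6a1 with Cox6a2 in every state and sampleID. Cox4i1, Cox6a1 and Cox8a did not pass the test at -0.10 ± 0.07, 0.21 ± 0.18 and 0.10 ± 0.08 log2.

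**Figure D3:**
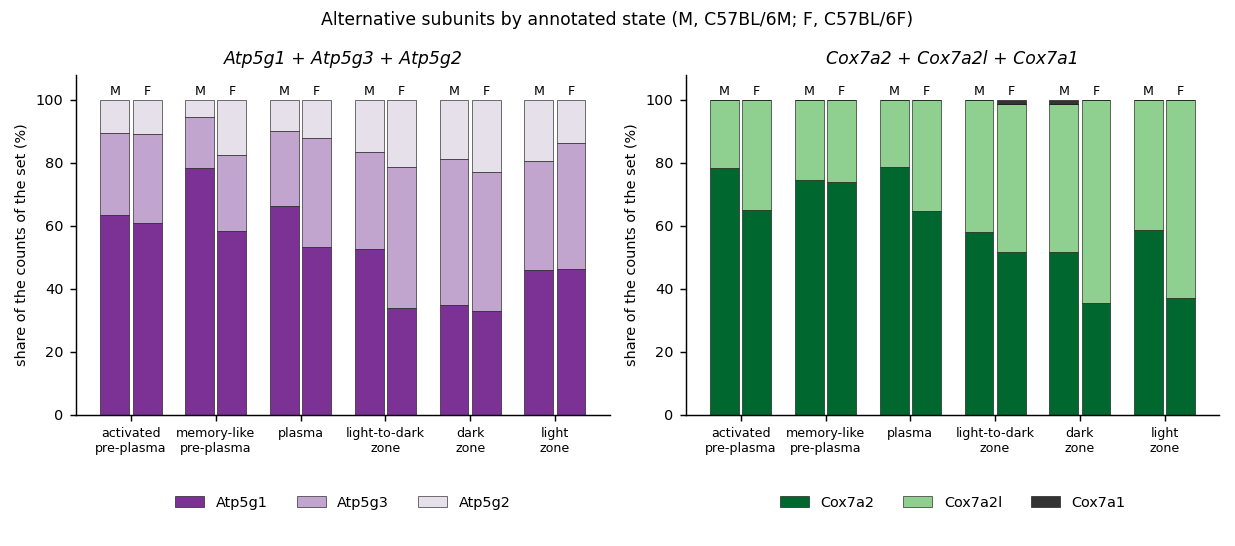
Share of each gene (%) in the counts of the Atp5g set and of the Cox7a set, in the 6 annotated states with C57BL/6M (M) and C57BL/6F (F) pools side by side. Atp5g1 was 53.2% to 78.4% in activated, memory-like and plasma pools and 33.0% to 52.6% in the 3 germinal centre states.

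How the annotation was made is not given in the sources used here, and the sort gates give a second grouping of the same cells. Between the plasma cell gate and the germinal centre gates, 24 of 77 members were higher and 6 lower, where 13.6% of 6865 genes were called higher and 21.3% lower, 34.9% in all. All 24 were among the 26 that rose under the annotation, without Atp5h and Ndufv1, and 4 of the 6 lower members were among the 5 of the annotation. Both comparisons draw on the same plates and cells, so they are no separate samples. Ndufa1 had 89.9, 632 and 2026 CPM in the plasma cell gate and 28.8, 163 and 786 CPM in the germinal centre gates, 1.82 ± 0.13 log2 higher. Atp5g1 was 1.36 ± 0.12, Uqcrq 1.15 ± 0.11, Ndufb11 1.09 ± 0.12 and Ndufs5 1.05 ± 0.18 log2 higher. Cox7a2l was at -1.42 ± 0.30 log2 and was lower in the plasma cell gate of every plate. Ndufc2, of the membrane arm, and Uqcr10, a small subunit of complex III, fell between these gates by 0.60 and 0.41 on the log2 scale (SE 0.19 and 0.16).

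The pre-plasma gate held cells of several annotated states, and 63.5% of its cells were called S or G2/M, against 16.8% of the plasma cell gate. Relative to the germinal centre gates, 14 of 77 members were higher there and 2 lower, where 7.16% of 7150 genes were called higher and 8.1% lower, 15.3% in all. Complex III gave 4 of 8 and complex II 2 of 4. Atp5g1 had 378, 759 and 1343 CPM in the pre-plasma gate and 178, 345 and 663 CPM in the germinal centre gates (1.005 ± 0.12 log2, adjusted p = 5.23e-07, 18 of 19 plates). Sdhd, a membrane anchor of succinate dehydrogenase, had 215, 419 and 609 CPM in the pre-plasma gate and 118, 300 and 448 CPM in the germinal centre gates (0.55 ± 0.15 log2, adjusted p = 0.0116). Sdhc, the other anchor, was 0.84 ± 0.28 log2 higher (adjusted p = 0.039). Both anchors were thus higher in the pre-plasma gate, on 15 and 14 of 19 plates. Uqcrfs1 and Uqcrq were 0.66 ± 0.14 and 0.55 ± 0.08 log2 higher, and Ndufab1, the mitochondrial acyl carrier protein held in complex I, 0.56 ± 0.17 log2 higher. Cox7a2l and Cox4i1, the widespread version of subunit 4, were lower, at -0.58 ± 0.14 and -0.25 ± 0.06 log2. The share of Atp5g1 in its set was 13.1 ± 7.93 points higher than in the germinal centre gates (adjusted p = 3.2e-05, permutation test, 18 of 19 plates).

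Between the plasma cell gate and the pre-plasma gate 13 of 77 members were higher and 3 lower, where 8.42% of 6564 genes were called higher and 9.69% lower, 18.1% in all. Of the 13, 11 were in complex I. Ndufa1 had 91.6, 622 and 2132 CPM in the plasma cell gate and 67.9, 276 and 1053 CPM in the pre-plasma gate (1.30 ± 0.12 log2, adjusted p = 5.12e-09, 19 of 19 plates). Ndufv3, a small subunit of the NADH-binding module, was 0.89 ± 0.16 log2 higher and Ndufs3 0.67 ± 0.15 log2 higher. Atp5g1 was 0.32 ± 0.10 log2 higher (adjusted p = 0.0278). Side by side, Ndufa1 was 1.30 log2 higher in the plasma cell gate than in the pre-plasma gate and 0.49 ± 0.11 log2 higher in the pre-plasma gate than in the germinal centre gates, while Atp5g1 gave 0.32 and 1.005 log2. The comparisons share pools, and the difference between these steps was not tested. Uqcr10, Ndufc2 and Cox6c were lower in the plasma cell gate, at -0.64 ± 0.14, -0.57 ± 0.16 and -0.43 ± 0.12 log2. Under DESeq2 size factors in place of TMM, 10 members were higher and 7 lower, and the members' median of 0.01 log2 became -0.09 as that of all genes shifted by -0.10.

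**Figure D4:**
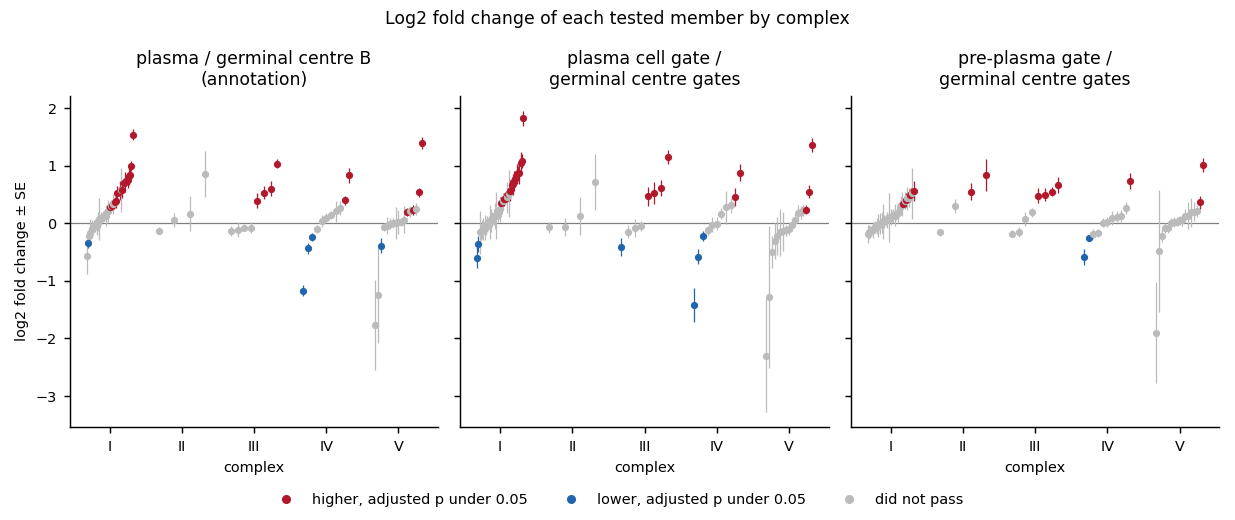
Log2 fold change with SE (y axis) of each tested member, by complex (x axis), for annotated plasma against germinal centre B cells, the plasma cell gate against the germinal centre gates and the pre-plasma gate against the germinal centre gates. Red members were called higher and blue lower by edgeR at an adjusted p under 0.05. The 3 panels have 26, 24 and 14 members higher and 5, 6 and 2 lower.

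For the annotated states, counts were added up by sampleID, so each state had 2 pools. In a simulation for these 4 comparisons, at most 2% of genes changed 4-fold were recovered, so with 2 pools a state a member that was not called may still differ. Activated pre-plasma cells had 1 of 80 members called against light zone cells, where 1.48% of 11037 genes were called, 0.516% higher and 0.96% lower. It was Atp5g1, with 1013 and 854 CPM in the C57BL/6M and C57BL/6F activated pools and 376 and 382 CPM in the light zone pools (1.28 ± 0.26 log2, adjusted p = 0.0459). The pools did not overlap, but the call was lost when any 1 of the 4 pools was left out. Against plasma cells, 0 of 80 members were called in activated cells by edgeR, where 0.906% of all genes were called, 0.0634% higher and 0.843% lower. At an unadjusted p under 0.05 were 9 of the 80 members and 1060 of the 11037 genes. DESeq2 called 1 member. The Atp5g1 share of its set was 63.3% and 60.7% in the C57BL/6M and C57BL/6F activated pools, 66.2% and 53.2% in plasma pools and 45.9% and 46.3% in light zone pools. Ndufa1 had 324 and 140 CPM in activated pools, 1340 and 354 CPM in plasma pools and 298 and 153 CPM in light zone pools. The activated pools thus lay near the plasma pools in the Atp5g1 share and near the light zone pools in Ndufa1, a contrast that was not tested. Of activated cells 96.6% were called S or G2/M, against 24.4% of plasma and 54.0% of light zone cells, and its part was not tested.

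Memory-like pre-plasma cells had 1 member higher and 2 lower than plasma cells of 80 tested, where 6.05% of 11037 genes were called, 0.67% higher and 5.38% lower. The median of all genes was -1.50 log2, and that of the members -0.02 log2. Cox7b, a transmembrane subunit of complex IV, had 1093 and 721 CPM in the memory-like pools and 559 and 271 CPM in the plasma pools (1.18 ± 0.24 log2, adjusted p = 0.0281). Atp5b had 430 and 232 CPM in memory-like and 786 and 988 CPM in plasma pools (-1.39 ± 0.32 log2, adjusted p = 0.0372). Atp5c1 had lower levels too, at -1.09 ± 0.21 log2 (adjusted p = 0.0222). Memory-like cells were shallow, with a median of 376 genes, and 12.2% of their counts were immunoglobulin transcripts, against 6.4% in plasma cells. Their summed members were 50490 and 41900 CPM, against 50370 and 34930 CPM in plasma pools. Leaving out either plasma pool left 0 members called, where 5 genes were higher and 16 lower without the C57BL/6F pool, and 7 higher and 15 lower without the C57BL/6M pool. Without the C57BL/6F memory-like pool 20 members were called, where 260 of 12268 genes were higher and 1403 lower. Without the C57BL/6M memory-like pool 22 members were called, where 455 of 12252 genes were higher and 2078 lower, so the calls over all genes grew too. Under DESeq2 size factors 6 members were higher and 1 lower, as the median of all genes shifted by 0.16 log2. With every cell thinned to 10000 counts, 1 of 77 members was higher and 3 were lower, where 54 of 7997 genes were higher and 515 lower.

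Light-to-dark zone cells gave 0 of 80 members called against light zone cells by edgeR, where 0.417% of genes were called, 0.00906% higher and 0.408% lower. At an unadjusted p under 0.05 were 4 of the 80 members and 715 of 11037 genes. DESeq2 also called 0 members, where it called 72 genes higher and 230 lower. By mean level over both sampleIDs, 36 of the 82 members were highest in memory-like, 22 in plasma, 15 in activated, 2 in light-to-dark zone, 4 in dark zone cells and 3 in light zone cells. The lowest mean lay in the memory-like state for 23 members, beside 0 for plasma, 8 for activated, 25 for light-to-dark zone, 12 for dark zone and 14 for light zone cells. The memory-like state, with the fewest counts per cell, thus stood often at both ends. The deeper light-to-dark zone state was lowest most often. The part of depth was not tested, and the ranks of other genes are not given here. In cells thinned to 10000 counts, a median of 67 members was detected in activated, 23 in memory-like, 46 in plasma, 61 in light-to-dark zone, 43 in dark zone cells and 37.5 in light zone cells. Before thinning, these medians were 73, 19, 52, 69.5, 47 and 40 members, and thinning kept 477 of 480 plasma but 41 of 63 memory-like cells.

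Dark zone cells had 2 members higher than light zone cells and none lower among 77 tested on 19 plates, where 0.826% of 5447 genes were called higher and 0.496% lower, 1.32% in all. Sdhb (chr4:140961203-140979193) had 1187, 1486 and 2781 CPM in dark zone pools and 319, 1180 and 1650 CPM in light zone pools (0.61 ± 0.12 log2, adjusted p = 0.00238). It was higher in the dark zone pools of 16 of 19 plates, and the ranges overlapped. Cox6b1 (chr7:30616861-30626151) had 368, 982 and 2216 CPM in dark zone and 274, 807 and 1578 CPM in light zone pools (0.45 ± 0.09 log2, adjusted p = 0.00346, 18 of 19 plates). Of the members, 69 of 77 had a fold change above 0, at a median of 0.24 log2, while over all genes the median lay further from 0, at 0.45 log2. Neither gene was called with G1 cells alone, at 0.81 log2 for Sdhb and 0.60 log2 for Cox6b1, or with the plates of either sampleID alone. Under DESeq2 size factors 41 genes were called higher and 42 lower over all genes, against 45 and 27 under TMM, and both members stayed called.

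Between the sampleIDs, 21 of 78 members were higher in C57BL/6M than in C57BL/6F plasma cells and none were lower, where 0.873% of 7216 genes were called higher and 0.0831% lower, 0.956% in all. In germinal centre B cells, 12 of 77 members were higher and none lower, where 0.539% of 7423 genes were called higher and 0.0135% lower, 0.552% in all. Of these, 10 were called in both classes, 47.6% of those in plasma and 83.3% of those in germinal centre B cells. Ndufa1 had 449, 1219 and 1685 CPM in the plasma pools of 10 C57BL/6M plates and 87.3, 358 and 579 CPM in those of 9 C57BL/6F plates (1.80 ± 0.29 log2, adjusted p = 0.00203). The highest C57BL/6F plate stood above the lowest C57BL/6M plate. In germinal centre B cells Ndufa1 had 178, 462 and 899 CPM in C57BL/6M and 0, 139 and 199 CPM in C57BL/6F pools (1.72 ± 0.31 log2, adjusted p = 0.00547). The 0 was that of plate 6, while the other 9 C57BL/6F plates had at least 34.8 CPM as scaled for the comparison with plasma cells. Ndufc1 was 1.77 ± 0.25 log2 higher in plasma cells (adjusted p = 0.00034) and Atp5k, the e subunit of ATP synthase, 1.91 ± 0.39 log2 higher (adjusted p = 0.0145). Ndufa13, Ndufv3, Ndufa3, Cox7c, Cox6c and Uqcr11 were between 1.25 and 1.45 log2 higher. Complex II had 0 of 4 members called in either class by edgeR and 0 at an unadjusted p under 0.05.

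The members called between sampleIDs had mostly short annotated transcripts. The length of a gene was the median over all its protein-coding transcripts in GENCODE M21. It need not be the length of the RNA in these cells, so members may stand in a wrong length group. By this measure the called members had a median of 540 bases in each class. The members not called had 788 and 733 bases in plasma and germinal centre B cells. In plasma cells 14 of 27 members under 600 bases were called, 5 of 31 from 600 to under 1000 bases and 2 of 19 of 1000 bases or more. Of genes outside the set, 11 of 252, 13 of 1172 and 4 of 5246 were called higher at these lengths. Spearman's rho between fold change and length was -0.56 over 77 members in plasma and -0.62 over 76 members in germinal centre B cells, a description over genes that share libraries. It was -0.16 for plasma against germinal centre B cells. There too, members called higher were short, at a median of 571 bases against 745 for those not called. They were 14 of 27 members under 600 bases, 7 of 30 from 600 to under 1000 and 5 of 19 of 1000 or more. Other genes called higher were 48 of 263, 196 of 1215 and 690 of 5617 at these lengths. Called lower were 1, 2 and 2 members and 57, 253 and 929 other genes. Genes outside the set with transcripts under 600 bases also stood higher in C57BL/6M, with a median of 0.21 log2 over 252 genes in plasma and 0.13 log2 over 260 in germinal centre B cells, against 0.01 and 0.00 log2 for those of 1000 bases or more. Plates of 1 sampleID also varied: among the plasma pools of the 10 C57BL/6M plates the highest Ndufa1 level, 1783 CPM, was 3.70 times the lowest, 483 CPM, as scaled for the comparison with germinal centre B cells. The part of transcript length in these differences was not tested, and between the sampleIDs sex, animal, sampleID and handling cannot be told apart. Without plate 6 of C57BL/6F, which held 10 cells over all classes, 11 members were called in germinal centre B cells, where 34 of 7715 genes were higher and 1 lower.

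**Figure D5:**
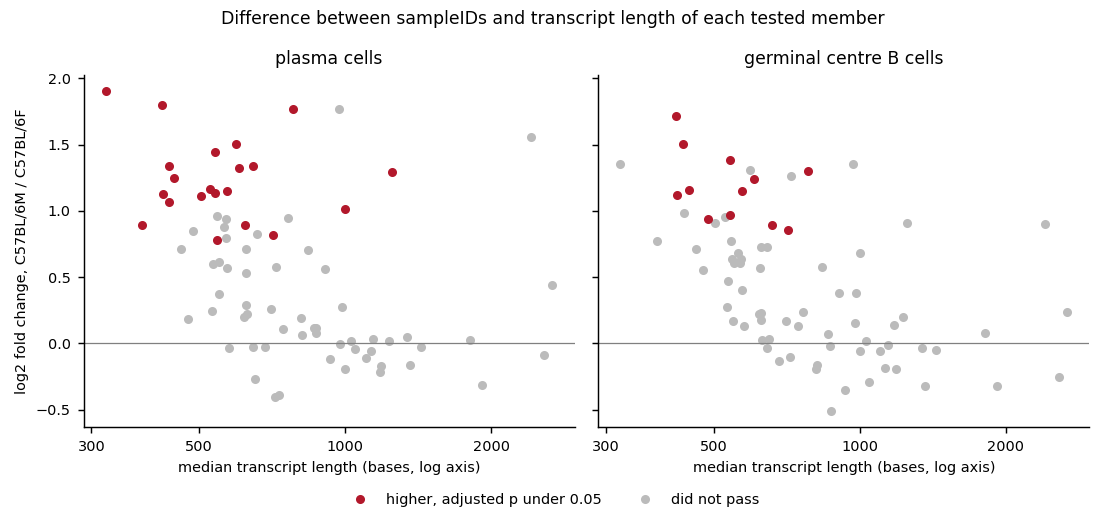
Log2 fold change of C57BL/6M over C57BL/6F (y axis) against median transcript length in bases (x axis, log) for each tested member, in plasma and in germinal centre B cells, with called members in red. The 21 and 12 called members gather at short lengths, with a median of 540 bases in each class.

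Genes of related steps, listed with earlier results of these data known, are given beside the nuclear subunits. Of 7 tested mitochondrially encoded subunits 4 fell in plasma against germinal centre B cells and none rose (median -0.36 log2), with mt-Nd2, of complex I, at -0.46 ± 0.16 and mt-Cytb, of complex III, at -0.36 ± 0.06 log2. Between the gates 1 of 7 rose and 3 fell, and mt-Co1, of complex IV, was 0.33 ± 0.06 log2 higher in the plasma cell gate than in the germinal centre gates. Under the annotation mt-Co1 did not pass the test, at 0.15 ± 0.06 log2 (adjusted p = 0.0814). Of 40 assembly factors 0 rose and 1 fell, Sdhaf2, which attaches the flavin of complex II, at -1.94 ± 0.50 log2. Of 16 genes listed for electron carriers, adenine nucleotide transport and related functions 2 rose and 5 fell. The largest called changes were those of Pdss1 at -3.68 ± 1.04 and Coq9 at 1.80 ± 0.40 log2. Cytochrome c (Cycs) was 0.57 ± 0.08 log2 higher, whereas the ADP/ATP translocases Slc25a4 and Slc25a5 were at -0.86 ± 0.12 and -0.54 ± 0.07 log2. Cyc1, cytochrome c1, was at 0.11 ± 0.11 log2 and did not pass.

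Of 20 genes of the citric acid cycle and pyruvate entry 4 rose and 1 fell in plasma against germinal centre B cells, with Mpc2, of the mitochondrial pyruvate carrier, at 1.90 ± 0.17 log2 and the fumarase gene Fh1 at -1.27 ± 0.32 log2. Of 13 glycolysis genes 0 rose and 5 fell (median -0.35 log2), among them Gpi1 at -1.04 ± 0.35 log2. In the plasma cell gate against the germinal centre gates 6 of 13 fell, with the lactate dehydrogenase gene Ldha at -1.31 ± 0.29 log2. Of 75 mitochondrial ribosomal proteins 12 rose and 7 fell, at a median of -0.19 log2. None of 9 tested regulators of mitochondrial biogenesis was called under the annotation by edgeR, Nrf1 and Tfam being at -1.03 ± 0.47 and -0.71 ± 0.31 log2 (adjusted p = 0.0994 and 0.0863). In the plasma cell gate against the germinal centre gates Myc and Polrmt, the mitochondrial RNA polymerase, were called lower, Myc at -2.26 ± 0.86 log2. Over all genes, 14.2% were higher and 17% lower in the annotated comparison, while between the plasma cell gate and the germinal centre gates 13.6% were higher and 21.3% lower.

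NRF1 is known to act on many genes of respiratory subunits, and its letters were searched for in 300 bases around the start (250 before and 50 after) of the 68 members matched in the RefSeq promoters. The NRF1 core was in 17 members (25%), against 5.19% of 27025 genes with a window and 14.2% of 5880 genes that were tested. It stood in 5 of 22 members that rose and 1 of 3 that fell in plasma cells. The stretches of 1 member of each kind are shown, with the matched letters in capitals.
Ndufs5 (chr4:123718187-123718336, minus strand), which rose: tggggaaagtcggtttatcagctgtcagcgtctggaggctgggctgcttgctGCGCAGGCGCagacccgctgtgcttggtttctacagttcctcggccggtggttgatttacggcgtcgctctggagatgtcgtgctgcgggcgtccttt
Ndufa8 (chr2:36049339-36049488, minus strand), which fell: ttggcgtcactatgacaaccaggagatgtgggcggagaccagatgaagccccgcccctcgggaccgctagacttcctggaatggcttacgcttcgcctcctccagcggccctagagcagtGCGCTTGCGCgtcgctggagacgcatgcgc
Both hold the NRF1 letters, 98 and 30 bases before the start, those of Ndufa8 on the other strand. The ETS letters CCGGAAG were in 23.5% of members and 26.0% of tested genes, the E-box CACGTG in 10.3% and 12.8%, and the YY1 letters AAGATGG in 17.7% and 10.3%, each on both strands.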

How the data were processed

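Whole-number counts per gene and cell were used as the authors deposited them, made with STAR 2.5.3a, HTSeq 0.9.1 and mm10 per the submitters' processing notes. FB5P-seq counts molecular tags at the 5′ ends of transcripts. No count per gene and cell exceeded 1024, the highest member count was 758, and a correction for tags shared by chance, taking 1024 as the number of tags, was tried. The spike-in share is a fraction in the deposited table of cells. State, gate, plate and phase are the authors' own, by steps not given in the sources used here.

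Counts were summed per plate and class (at least 5 cells), or per sampleID and state, with dark, light and light-to-dark zone cells forming the germinal centre B class. edgeR 4.0.16 (TMM, filterByExpr by class, estimateDisp, glmQLFit, glmQLFTest) was fitted on all genes, with the plate or sampleID as a block and none between sampleIDs. SEs came from the F statistic. DESeq2 1.42.0 was an alternative. On simulated data with 200 changed genes, the plate fits recovered 6% to 18% of 2-fold and 26% to 51% of 4-fold changes. Named first were, by complex, the called members with the largest fold changes (up to 6 higher and 3 lower in plasma against germinal centre B cells, 10 in other comparisons), and the alternative subunits. Members, lists and tests were chosen with earlier results of these data known. Cox8b was not analysed here.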

Additional observations from a re-analysis of the deposited data

Results flagged for a closer look

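The summed level of each complex was screened among the plates of a sampleID for a plate far from the others, by Dixon's 95% critical value, in 40 groups, of which chance marks about 1 in 20. The screen marked 2 groups. In the germinal centre B pools of C57BL/6F, plate 6, with 10 cells and 5979 counts over all its classes, had 1536 CPM of complex V members, against a median of 8032 CPM over the 10 plates. This plate entered the germinal centre B comparison between sampleIDs, where 11 members were called without it and 12 with it. In the plasma pools of C57BL/6F, plate 5 had 7320 CPM of complex IV members, against a median of 4602 CPM over the 9 plates. The same plates scaled for the comparison of plasma with germinal centre B cells gave no such mark.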

How the results depend on the processing

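In 668 of 776 alternative values of named members, over 82 pairs of member and comparison, the direction and the side of the threshold stayed, 103 lost the call, 3 gained it and 2 turned: Atp5g2 in plasma against germinal centre B cells was 0.0259 log2 without immunoglobulin genes and 0.0683 log2 with C57BL/6M plates alone. Fits on the plates of 1 sampleID hold fewer pools. With C57BL/6F plates alone, members higher and lower numbered 9 and 1 for plasma against germinal centre B cells. They numbered 6 and 0 for the plasma cell gate and 3 and 1 for the pre-plasma gate against the germinal centre gates. They numbered 2 and 0 between plasma cell and pre-plasma gates, and 0 and 0 between zones. Genes higher and lower numbered 601 and 419 of 7387 in plasma cells and 501 and 453 of 6514 in the plasma cell gate. In the pre-plasma gate 280 of 6936 genes were lower, and 47.1% of the called genes were higher. Between plasma cell and pre-plasma gates these genes were 211 and 76 of 6278, and between zones 4 and 10 of 5113. With C57BL/6M plates alone, 2 were lower in plasma cells, 3 in the plasma cell gate, 5 were higher and 1 lower in the pre-plasma gate, and 0 were higher in the dark zone. There, 758 of 7288 and 812 of 6519 genes were lower, 260 higher and 235 lower of 6888, and 17 of 5319 higher. With sampleID in place of the plate as covariate, 2 were lower in plasma cells, 3 in the plasma cell gate, 7 were higher in the pre-plasma gate, 6 between plasma cell and pre-plasma gates and 0 between zones. G1 cells alone gave 1 lower in plasma cells, where 458 of 5055 genes were lower. Between zones they gave 0, where 1 gene was higher and 2 lower of 2976. Thinned cells gave 1 between zones, 0 lower in the pre-plasma gate and 0 in activated against light zone cells. With no filter on low counts, 9 were higher in the pre-plasma gate, where 619 of 15312 genes were higher. In activated against plasma cells 1 was called, where 7 genes were higher and 125 lower of 16026. DESeq2 gave 8 lower in plasma cells, 4 higher between zones, 4 lower in the pre-plasma gate, 9 lower between plasma cell and pre-plasma gates, 5 and 1 called in activated against light zone and against plasma cells, 14 in memory-like cells and 22 between sampleIDs in germinal centre B cells. Its calls over all genes grew too. In the first 4 of these it called 2248 of 7649 genes lower, 458 of 5447 higher, 1147 of 7150 lower and 1591 of 6564 lower. Edge cases with 2 pools a state were alike, with 350 higher and 643 lower, 154 and 453, and 389 and 1597 of 11037. Between sampleIDs 87 genes were higher and 14 lower of 7423. DESeq2 size factors gave 7 lower between plasma cell and pre-plasma gates, 0 in activated against light zone cells and 7 in memory-like cells. Gene calls there were 803 lower of 6564, then 53 higher and 118 lower, and 113 higher and 477 lower, of 11037. Without estimateDisp, 5 were lower between plasma cell and pre-plasma gates, 5 and 2 were called in activated cells against light zone and plasma cells, and 22 and 32 between sampleIDs in germinal centre B and plasma cells. This setting called 1143 of 6564 genes lower between those gates. In activated cells it called 322 higher and 361 lower, and 159 and 395, of 11037. Between sampleIDs it called 83 and 17 of 7423, and 109 and 22 of 7216. Without immunoglobulin genes, 3 were lower in the plasma cell gate, where 1436 of 6745 genes were lower. In activated against plasma cells 1 was called, where 8 genes were higher and 87 lower of 10840. Leaving out 1 pool gave 0 in activated against light zone cells and 0 to 22 in memory-like cells, where the lone pool left was assumed to vary like the other states. Tag correction of 4 comparisons, chosen after seeing the data, kept each count within 1.5 times. The causes were not tested. No paired analysis was possible because, between the sampleIDs, plates of C57BL/6M and C57BL/6F are tied by no label, replicate numbers being given in accession order. Other comparisons were made within plates or sampleIDs. The comparisons of states rest on 2 pools a state.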

Other observations

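The 17 cells annotated pre-memory entered no comparison. The members were 2.45% of their summed counts, with a median of 2.30% per cell, and 1 of the 17 cells was called S or G2/M. The same share was 4.12% in activated pre-plasma, 4.01% in memory-like pre-plasma, 3.82% in plasma, 3.84% in light-to-dark zone, 3.65% in dark zone cells and 3.41% in light zone cells. Leaving out immunoglobulin genes from the total, it was 4.57% in memory-like and 4.08% in plasma cells. In cells thinned to 10000 counts, pre-memory cells had a median of 38 members detected, beside 37.5 in light zone cells.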
